A study of Mus musculus with 6 samples.

Results

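The Wnt ligands, receptors and secreted inhibitors of mouse skin were taken as 48 of the 32285 genes in the deposited gene table. They were chosen by symbol alone: 19 Wnt ligands, 10 Frizzled (Fzd) receptors, 4 R-spondins (Rspo), 3 Lgr receptors, 4 Sfrp and 4 Dkk inhibitors, the inhibitors Notum and Wif1, the target gene Axin2 and the nuclear factor Lef1. No measured value entered the choice. In GRCm38 with GENCODE M21, Wif1 spans chr10:121033960-121100650 (plus strand), Rspo1 chr4:124986430-125009099 (plus) and Sfrp1 chr8:23411502-23449632 (plus), the genes that the group comparisons turn on. The data are single-cell RNA libraries of Balb/c mouse skin made with a 10x 3′ droplet kit. EC-SAL is the control group and EC-OVA the ovalbumin-sensitized group, each with 3 libraries. The labels describe the tissue of all 6 libraries, controls included, as skin sensitized through its surface. Sensitization ran for 10 days and skin was taken 2 days later. No genetic change is named and ages are not given. Nothing in the labels says whether the libraries of a group came from separate mice, so p-values measure only the spread between libraries. The labels give CD4 as the cell type, but the clusters held keratinocytes, fibroblasts, cartilage cells and hair follicle cells, and lymphoid cells were 417 of the 24432 kept.

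Wnt proteins are secreted, lipid-modified ligands that bind Frizzled receptors and their co-receptors on nearby cells. In the branch that acts through beta-catenin, binding lets beta-catenin build up and act with factors such as Lef1 on target genes such as Axin2, which itself damps the signal. R-spondins bind Lgr receptors and keep Frizzled receptors at the cell surface. Sfrp proteins and Wif1 bind Wnt ligands outside the cell, Dkk proteins act on the co-receptor, and Notum is an enzyme that removes the lipid from Wnt. In skin the pathway is known for hair follicle formation and cycling, where the dermal papilla at the follicle base exchanges signals with the hair matrix around it.

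The promoter windows shown are those of Wif1 and Rspo1, whose levels the comparisons below turn on, and of Wnt11, one of the members with a window that holds a match to the motif searched. Wnt11 has a further window, from another start, that holds none. Each runs from 250 bases before to 50 bases after the gene's start in RefSeq (build GRCm38.p6), 5′ to 3′ on the gene's strand. Capitals mark the match.
Wif1, chr10:121033754-121034053, plus strand: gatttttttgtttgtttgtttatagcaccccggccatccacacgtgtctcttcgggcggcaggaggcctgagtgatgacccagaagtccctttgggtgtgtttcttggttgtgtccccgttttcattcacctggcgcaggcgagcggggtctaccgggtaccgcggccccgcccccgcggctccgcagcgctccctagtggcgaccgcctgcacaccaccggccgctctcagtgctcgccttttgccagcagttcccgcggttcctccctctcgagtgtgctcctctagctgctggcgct
Rspo1, chr4:124986180-124986479, plus strand: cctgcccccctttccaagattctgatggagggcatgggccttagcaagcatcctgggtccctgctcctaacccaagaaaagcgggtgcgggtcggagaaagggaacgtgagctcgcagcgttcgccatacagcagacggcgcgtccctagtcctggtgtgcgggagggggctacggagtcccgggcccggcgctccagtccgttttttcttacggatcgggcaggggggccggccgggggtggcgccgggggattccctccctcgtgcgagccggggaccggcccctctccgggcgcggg
Wnt11, chr7:98834862-98835161, plus strand: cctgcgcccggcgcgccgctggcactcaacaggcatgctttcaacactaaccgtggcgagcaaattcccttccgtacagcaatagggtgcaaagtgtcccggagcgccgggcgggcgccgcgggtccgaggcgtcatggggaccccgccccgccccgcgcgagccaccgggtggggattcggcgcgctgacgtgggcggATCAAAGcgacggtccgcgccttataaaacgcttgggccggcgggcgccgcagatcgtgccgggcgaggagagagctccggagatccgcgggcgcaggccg
The motif was CTTTGAT, a form of the sequence that Lef1 and related factors bind, searched on both strands, where its reverse complement is ATCAAAG. It was found in 1225 of 32851 windows of the same length, 3.73%, and in 2 of the 38 windows of the 32 members that had one, 5.26%. Those 2 windows belong to Wnt5b and Wnt11. A match is a description of the letters only.

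Cells were named from lists of marker genes that held none of the 48 members, and the members were left out of the genes used for clustering. The dermal papilla-like cells numbered 305 and raised 8 of 12 papilla markers. The hair matrix-like cells numbered 736, with 6 of 16 markers of matrix and inner root sheath raised. Chondrocyte-like cells numbered 1822 and raised 12 of 14 markers. Fibroblast-like cells numbered 4982 in 14 subsets, named here by a pair of leading genes. Some subsets carried markers of other lists: against the clusters split with them, which were mostly fibroblast-like, the one led by Coch and Kera raised 4 of 10 perichondrial or tendon markers (2 in its top 10 genes), the one led by Sbspon and Krt19 raised 2 of 8 basal keratinocyte markers (both in its top 10), and the one led by Tnn and Aqp5 raised 5 of 8 dermal sheath markers (1 in its top 10) and 3 of 10 fibroblast markers. For the Kera and Krt19 subsets fewer than 2 fibroblast markers were raised at that level. The same held for the subsets led by F13a1 and Stc1, Coch and Matn4, and Hapln1 and Chrm2. It also held for cycling fibroblasts, which raised 4 of 8 dermal sheath markers. The subset led by Vtn and Trf raised 2 of 10 fibroblast markers. Against all clusters, the ones that held 336 of 369 Kera and 120 of 122 Krt19 subset cells each raised 6 of 10 fibroblast markers. Those that held 367 of 402 F13a1, 74 of 76 Hapln1, 347 of 591 Matn4 and 121 of 218 cycling subset cells raised 9 of 10. Keratinocyte-like cells numbered 7692, of which 2344 were basal-like and 1016 were like the outer root sheath. The latter were also led by Tagln and Acta2, genes of contractile cells. The 1264 perichondrial-like cells, from the layer around cartilage, raised 5 of 10 of their own markers and 5 of 10 fibroblast markers. A cluster of 207 cells led by Igfbp3 raised only 2 of 12 papilla markers and was left unnamed. EC-OVA 2 stood apart from the other EC-OVA libraries in its counts over all genes (chi-square per degree of freedom 26.8 and 22.1, against 5.69 between the other two and 4.69 to 13.7 among EC-SAL), and changes of a member's call without it are given beside the results or with the processing. The kept cells of a library held 21743490 to 28049562 UMIs, the counted RNA molecules. Levels are given as CPM, UMIs of a gene per 1000000 UMIs of the cell type in a library. CPM from 3′ reads is not divided by transcript length, so levels are compared between cell types within a gene. Since cell types came from clusters of the same cells, their levels are a description with no test.

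Of the 48 members, 38 reached a mean of 20 CPM in a treatment group of some named type or subset with at least 10 cells in each library. The other 10 were Wnt1, Wnt2b, Wnt3a, Wnt7a, Wnt8a, Wnt8b, Wnt9a, Wnt9b, Dkk1 and Dkk4, and Dkk4 had no UMI in any kept cell. The dermal papilla-like cells held 20 members at that level, among them 6 Wnt ligands, 3 Frizzled receptors, 3 R-spondins, Notum and Wif1. Fibroblast-like cells held 12, hair matrix-like cells 11, outer root sheath-like cells 9, perichondrial-like and Schwann-like cells 8 each, and chondrocyte-like and basal keratinocyte-like cells 6 each. Myeloid cells held 0, and lymphoid cells held 1, Wif1.

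**Figure D1:**
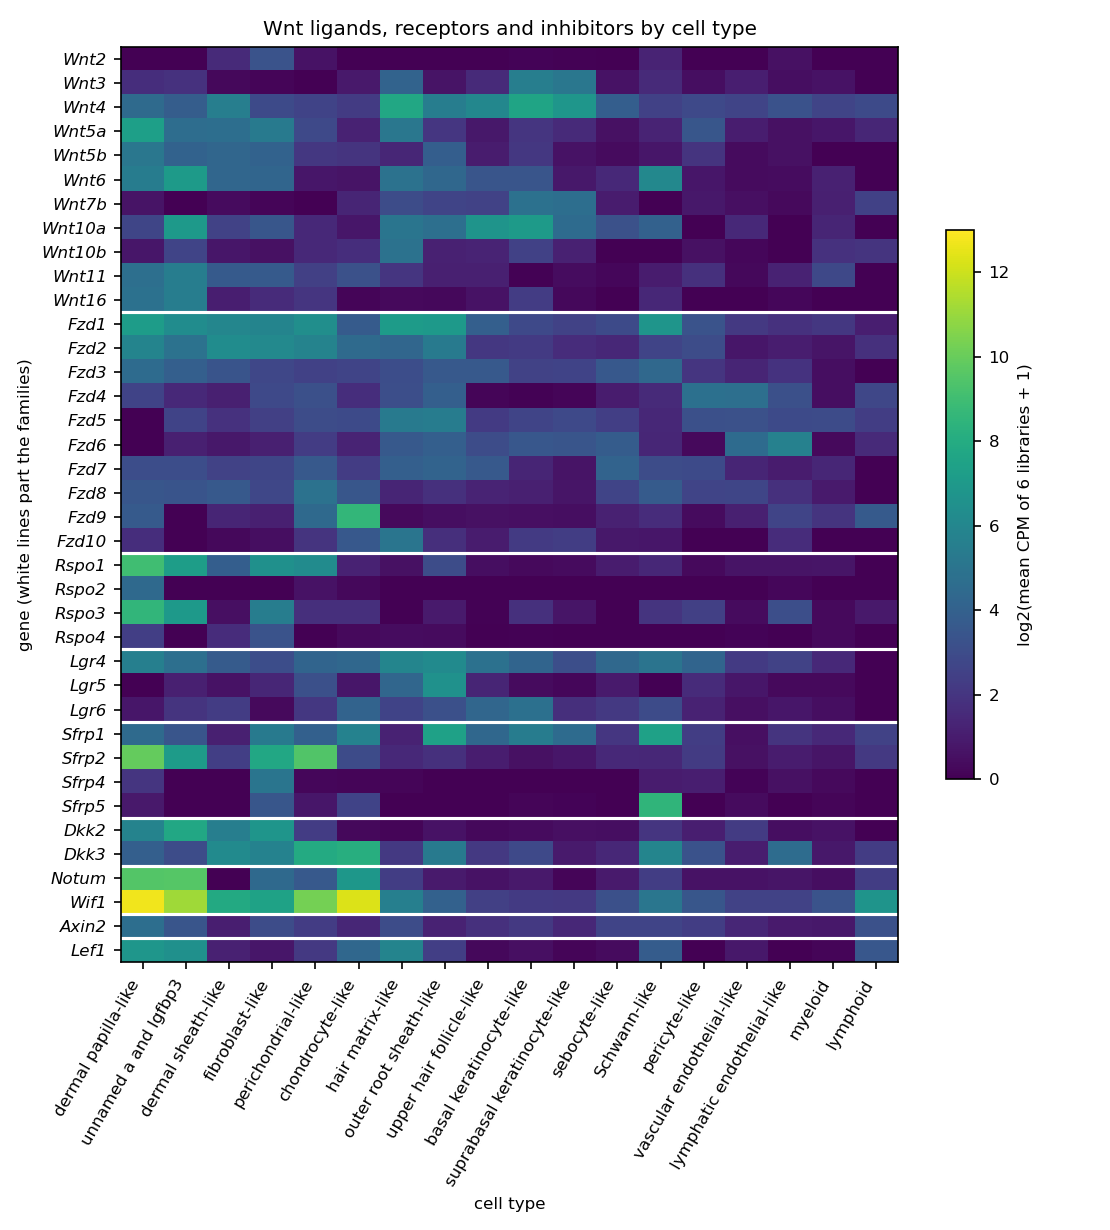
Mean CPM over the 6 libraries of the members that reached 20 CPM (rows) in the main cell types (columns), on a log2(CPM + 1) colour scale. The dermal papilla-like column holds the most members at 20 CPM or above (20), with Wif1 brightest there and in chondrocyte-like cells (means 6789.8 and 5093 CPM).

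Among the ligands, some lay mostly in keratinocyte-like and matrix-like cells and some mostly in dermal cells, but others were shared. Keratinocyte-like cells held 32.0% of Wnt6 and 35.7% of Wnt16 UMIs, against 33.3% and 25.7% in fibroblast-like cells. Matrix-like cells held 10.2% of Wnt5a and 11.5% of Wnt6 UMIs. Wnt4 was at 232, 185 and 207 CPM in hair matrix-like cells of EC-SAL and at 243, 236 and 201 in EC-OVA, and at 155 to 227 CPM in basal keratinocyte-like cells, so those ranges overlapped. Keratinocyte-like cells held 79.8% of all Wnt4 UMIs and matrix-like cells 12.3%. Among keratinocyte-like cells Wnt4 averaged 195 CPM in basal-like, 114 in suprabasal-like and 64.2 in upper hair follicle-like cells. Wnt10a, Wnt3 and Wnt7b also had their highest means in basal keratinocyte-like cells. Wnt10a was at 123 to 151 CPM there and averaged 32.5 CPM in matrix-like cells. Wnt3 averaged 46.9 CPM and Wnt7b 28.2 CPM in basal-like cells, and keratinocyte-like cells as a whole held 93.5% and 94.0% of their UMIs. Wnt10b was highest in matrix-like cells at 16 to 53.3 CPM.

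Wnt5a, the best known ligand of the branches that do not use beta-catenin, was highest in papilla-like cells, at 117, 158 and 143 CPM in EC-SAL and 215, 224 and 108 CPM in EC-OVA. The groups overlapped. Next came fibroblasts led by F13a1 and Stc1, at 60.6 to 118 CPM. Wnt5b was also highest in papilla-like cells, at a mean of 34.4 CPM. Wnt6 was highest in the subset led by Sbspon and Krt19, which also raised basal keratinocyte markers, at 153 to 426 CPM, and averaged 137 CPM in the unnamed cluster and 42.7 CPM in papilla-like cells. That subset held 122 cells in all. Wnt2 reached 34.6 CPM in fibroblasts led by Myoc and Dlk1, Wnt11 46.1 CPM in those led by Hapln1 and Chrm2, and Wnt16 45.1 CPM in the unnamed cluster. In papilla-like cells Wnt16 and Wnt11 averaged 27.6 and 25.8 CPM.

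Among the receptors, Fzd9 stood out by place. It was at 357, 361 and 375 CPM in EC-SAL and 402, 376 and 449 CPM in EC-OVA in chondrocyte-like cells, which held 91.6% of its UMIs. Perichondrial-like cells had 10.0 to 31.9 CPM. The EC-OVA libraries were all above those of EC-SAL in chondrocyte-like cells, by 0.19 ± 0.09 on the log2 scale (SE), which did not pass the test (adjusted p = 0.443, edgeR's quasi-likelihood test, Benjamini-Hochberg). Fzd1 was broad, with a mean of 218 CPM in fibroblasts led by Hapln1 and Chrm2, 143 in papilla-like and 137 in matrix-like cells. Fzd2 was highest in fibroblasts led by Coch and Kera, at 153 to 317 CPM. Fzd5 averaged 42.8 CPM in outer root sheath-like and 40.1 CPM in matrix-like cells, and Fzd10 31.9 CPM in matrix-like cells. The other Frizzled members were low but had distinct highest types: Fzd6 in lymphatic endothelial-like cells at 51.6 CPM, Fzd7 in fibroblasts led by Sbspon and Krt19 at 35.0, Fzd8 in perichondrial-like cells at 28.9, Fzd4 in pericyte-like cells at 26.4 and Fzd3 in papilla-like cells at 22.2.

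R-spondins had their highest levels in dermal cells and their Lgr receptors in epithelial cells. Rspo1 was at 634, 478 and 571 CPM in EC-SAL and 445, 443 and 536 CPM in EC-OVA in papilla-like cells, and at 341 to 467 CPM in fibroblasts led by F13a1 and Stc1. Rspo3 was at 413, 315 and 339 CPM in EC-SAL and 459, 438 and 328 CPM in EC-OVA in papilla-like cells, and at 177 to 331 CPM in the same subset. For both genes the ranges of the papilla and of that subset overlapped. Rspo2 had 36 UMIs in all, 80.6% of them in papilla-like cells, at 14 to 35.7 CPM. Rspo4 was highest in fibroblasts led by Hapln1 and Chrm2 (mean 95.7 CPM) and by Coch and Kera (83.3 CPM). On the receptor side, Lgr5, known from hair follicle stem cells, was at 80.6 to 101 CPM in outer root sheath-like cells and averaged 18.4 CPM in matrix-like cells. Lgr4 averaged 74.9 CPM in outer root sheath-like cells, 60.2 in matrix-like cells and 47.4 in papilla-like cells. Lgr6 averaged 27 CPM in basal keratinocyte-like cells.

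The secreted inhibitors held most of the members' molecules. Wif1 alone gave 64964 of the 150741 UMIs of the 48 genes, 43.1%. In papilla-like cells Wif1 was at 8106, 7941 and 6885 CPM in EC-SAL and at 5770, 5599 and 6438 CPM in EC-OVA. In chondrocyte-like cells it was at 5989.7, 5521 and 5658 CPM in EC-SAL and at 4972, 4304 and 4111 CPM in EC-OVA. In both types every EC-OVA library was below every EC-SAL library. Chondrocyte-like cells, being 1822 against 305, held 62.1% of the Wif1 UMIs and papilla-like cells 14.3%. Perichondrial-like cells followed at a mean of 1259 CPM, then fibroblasts led by F13a1 and Stc1 at 805 and those led by Wfdc12 and Cpz at 555, with dermal sheath-like cells at 238. The unnamed cluster had a mean of 2268 CPM, with libraries from 750 to 3843.

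By cell, Wif1 had a UMI in 292 of 305 papilla-like cells (95.7%) and in 95.8% of chondrocyte-like cells. In keratinocyte-like cells, which are deeper (median 7412 UMIs against 4263 in papilla-like cells), it had one in 3.02%, and in myeloid cells (median 1896) in 1.70%. With every cell thinned to 1000 UMIs, the shares were 86.8% in papilla-like, 85.9% in chondrocyte-like, 55.3% in perichondrial-like, 0.413% in keratinocyte-like and 0.596% in myeloid cells. The last 2 values are given as background, and whether free RNA left them was not tested. In the same papilla-like cells Rspo1 had a UMI in 71.5%, Notum in 69.2%, Sfrp2 in 66.2%, Rspo3 in 59.7%, Wnt5a in 44.9% and Lef1 in 33.4%. Inhibitors and agonists were seen in the same cells: 210 of the 305 (68.9%) had UMIs of both Wif1 and Rspo1, and 154 (50.5%) had Wif1, Sfrp2 and Notum together. Since nearly all these cells had Wif1, the 68.9% mostly restates the share with Rspo1. Whether members met in a cell more often than their single shares imply was not tested.

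Notum shared the Wif1 places in part. It was at 836, 788 and 798 CPM in EC-SAL and at 541, 461 and 1047 CPM in EC-OVA in papilla-like cells, where its EC-OVA libraries lay on both sides of EC-SAL. The unnamed cluster spanned 255 to 1749 CPM, fibroblasts led by F13a1 and Stc1 averaged 163 CPM and chondrocyte-like cells 118. Sfrp2 was at 798 to 1245 CPM in papilla-like cells and 521 to 882 CPM in perichondrial-like cells, ranges that overlapped, and averaged 508 CPM in fibroblasts led by Myoc and Dlk1. That subset was also the highest for Sfrp4, at a mean of 277 CPM, and for Sfrp1, at 219 CPM. Sfrp1 was nearly as high in Schwann-like and outer root sheath-like cells, at 175 and 174 CPM. Sfrp5 was at 340 to 2116 CPM in fibroblasts led by Sbspon and Krt19 and averaged 359.8 CPM in Schwann-like cells. Dkk2 averaged 219 and 206 CPM in both Coch subsets and 222 CPM in the unnamed cluster. Dkk3 averaged 283 CPM in chondrocyte-like and 242 CPM in perichondrial-like cells.

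**Figure D2:**
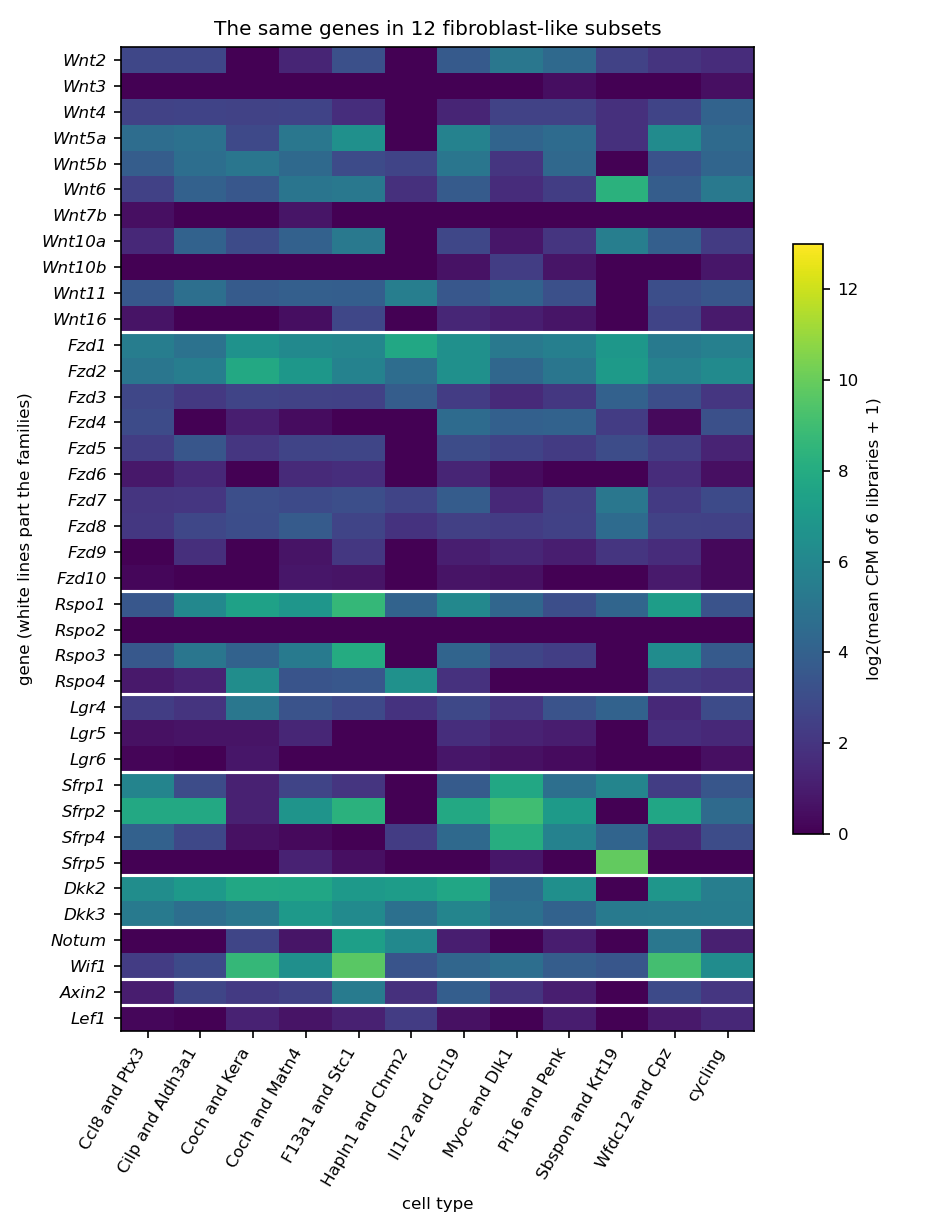
Mean CPM over the 6 libraries of the same members (rows) in the 12 tested fibroblast-like subsets (columns), on a log2(CPM + 1) colour scale. Wif1, Rspo1 and Rspo3 are highest in the one led by F13a1 and Stc1 (805, 408 and 251 CPM), and Sfrp1 and Sfrp4 in the one led by Myoc and Dlk1 (219 and 277 CPM).

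On the nuclear side, Lef1 averaged 114 CPM in papilla-like cells (80.9 to 143), 58.3 in matrix-like cells (42.5 to 75.8) and 19.4 in chondrocyte-like cells. The ranges of papilla and matrix did not overlap. Axin2 averaged 41.7 CPM in fibroblasts led by F13a1 and Stc1 and 25.3 CPM in papilla-like cells. Over the 29 cell types and subsets, which share libraries and differ in depth, the pairs of members most alike by Pearson's r of log2(CPM + 1) were Dkk2 with Wnt11 (0.836), Dkk2 with Wnt5b (0.827), Sfrp4 with Wnt2 (0.824), Wnt3 with Wnt7b (0.813) and Fzd1 with Fzd2 (0.808). Dkk2 with Rspo1 (0.807), Wnt3 with Wnt4 (0.797) and Fzd2 with Rspo1 (0.794) came next. Notum with Wif1 (0.794), Sfrp2 with Wnt5a (0.793) and Rspo1 with Rspo3 (0.791) followed.

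EC-OVA was compared with EC-SAL within each cell type, on UMIs summed per library. All adjusted p-values below are from edgeR's quasi-likelihood test with Benjamini-Hochberg adjustment over all genes tested in that type, with a threshold of 0.05 and n = 3 libraries per group, unless another test is named.

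In fibroblast-like cells Sfrp1 and Wnt5a rose and Rspo1, Dkk2, Notum, Wnt11 and Rspo3 fell, 7 of the 29 members tested. Over all genes 1112 of 11013 passed, 10.1%, of which 5.67% were higher and 4.43% lower. The median log2 fold change was -0.13 over the members and 0.00 over all genes. Sfrp1 was at 23.1, 30.1 and 23.3 CPM in EC-SAL and at 52.1, 46.2 and 52.5 CPM in EC-OVA, groups that did not overlap. Its log2 fold change was 0.98 ± 0.11 (SE, adjusted p = 0.000143). Rspo1 was at 119, 112 and 105 CPM in EC-SAL and at 74.1, 62.1 and 73.5 CPM in EC-OVA, with a log2 fold change of -0.68 ± 0.08 (adjusted p = 0.000143). The EC-OVA libraries were all lower. Both kept their calls with any library left out and under every planned setting. Without the subsets led by Coch and Kera and by Sbspon and Krt19, a setting added after the values were seen, 6 of 28 members passed, against 1094 of 10863 genes (10.1%), and Wnt5a lost its call (0.24, adjusted p = 0.142, edgeR).

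The remaining 5 calls were weaker. Dkk2 went from 124 ± 14.9 CPM (SD, n = 3) to 97.0 ± 6.62 CPM, a log2 fold change of -0.36 ± 0.09 (SE, adjusted p = 0.0211, edgeR). Notum went from 24.6 ± 1.51 to 16.4 ± 3.83 CPM, with every EC-OVA library lower (-0.60 ± 0.15, adjusted p = 0.0241, edgeR). Wnt11 was at 12.7 to 15.6 CPM in EC-SAL and 8.71 to 10.0 CPM in EC-OVA (-0.61 ± 0.15, adjusted p = 0.0267, edgeR). Rspo3, the other R-spondin of these cells, went from 51.1 ± 4.08 to 39.5 ± 5.51 CPM (-0.37 ± 0.10, adjusted p = 0.0347, edgeR). Wnt5a rose from 35.2 ± 2.65 to 43.4 ± 2.03 CPM (0.31 ± 0.09, adjusted p = 0.0415, edgeR). Each of these 5 lost its call without at least 2 of the 6 libraries and with DESeq2. Dkk2 lost it without EC-SAL 3 or EC-OVA 3. Notum and Rspo3 lost it when any of the EC-SAL libraries, EC-OVA 2 or EC-OVA 3 was left out, Wnt11 when EC-SAL 1, EC-SAL 2, EC-OVA 2 or EC-OVA 3 was, and Wnt5a when any but EC-SAL 3 was. Wif1 was at 173, 162 and 135 CPM in EC-SAL and at 255, 146 and 206 CPM in EC-OVA and did not pass (0.37 ± 0.15, adjusted p = 0.156, edgeR). Without EC-OVA 2, the lowest of the EC-OVA libraries, it passed (0.54, adjusted p = 0.00466), as it did with no filter on low counts (adjusted p = 0.000749).

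**Figure D3:**
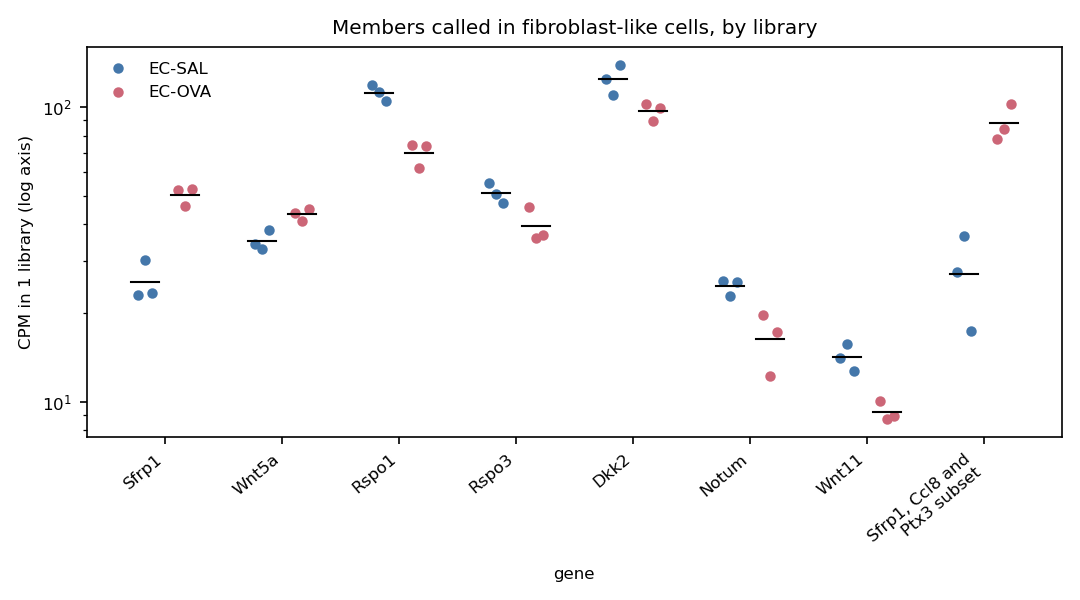
CPM by library (points) with the group mean (lines), EC-SAL and EC-OVA side by side, for the 7 members that passed in fibroblast-like cells and for Sfrp1 in the subset led by Ccl8 and Ptx3. Sfrp1 lies at 23.1 to 30.1 CPM in EC-SAL and 46.2 to 52.5 in EC-OVA, and Rspo1 at 105 to 119 and 62.1 to 74.1.

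The shares of some fibroblast subsets also differed between the groups. The subset led by F13a1 and Stc1, highest for Rspo1 and Rspo3, gave 10.9 to 11.4% of the UMIs of the 12 tested subsets in EC-SAL and 4.94 to 7.68% in EC-OVA. The subset led by Ccl8 and Ptx3 gave 9.13 to 12.1% and 19.6 to 21.3%, and cycling fibroblasts 3.51 to 6.03% and 12.9 to 14.2%. For the subset led by Coch and Matn4, among the highest for Dkk2, the groups overlapped, at 7.93 to 12.7% and 10.1 to 11.8%. The subset led by Tnn and Aqp5 had 0, 1 and 4 cells in EC-SAL and 58, 58 and 47 cells in EC-OVA, where it gave 9.38 to 12.1% of all fibroblast-like UMIs. In EC-OVA it held Sfrp1 at 70.7 to 124 CPM and Rspo1 at 10.9 to 38.8 CPM. It had too few cells to be tested, as had the one led by Vtn and Trf (47 cells). With these 2 left out and the other 12 pooled, a setting added after the values were seen, 610 of 10907 genes passed (5.59%) and of 28 members Sfrp1 (0.83 ± 0.12, adjusted p = 0.00126, edgeR) and Rspo1 (-0.58 ± 0.08, adjusted p = 0.00129, edgeR) did. Dkk2 was then at -0.25 (adjusted p = 0.167, edgeR), Notum at -0.54 (0.124), Wnt11 at -0.51 (0.0843), Rspo3 at -0.37 (0.0640) and Wnt5a at 0.24 (0.185). When each of the 12 was also given the same weight in every library, a comparison chosen after the values were seen and tested with limma, 268 of 11013 genes passed (2.43%), and of the members Sfrp1 and Wif1 did. Sfrp1 had a log2 difference of 0.74 ± 0.13 (SE, adjusted p = 0.00353, limma). Wif1 was at 154, 150 and 119 CPM in EC-SAL and 311, 194 and 256 CPM in EC-OVA at equal mix, 0.83 ± 0.13 (adjusted p = 0.00172, limma). Rspo1 was then at -0.17 (adjusted p = 0.442, limma), Rspo3 at 0.00 (0.997) and Notum at 0.00 (0.993), Dkk2 at -0.12 (0.614), Wnt11 at -0.41 (0.255) and Wnt5a at 0.35 (0.0978). Markers of other types moved too. The 10 keratinocyte markers summed to 928 to 991 CPM in EC-SAL fibroblast-like cells and 374 to 393 in EC-OVA, with 1 of 10 higher. The 12 papilla markers summed to 112 to 141 and 239 to 279 CPM with 4 of 12 higher, and the 8 dermal sheath markers to 155 to 181 and 412 to 544 CPM with 6 of 8 higher. Their part in the members' changes was not tested.

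Within the 12 fibroblast-like subsets tested, 2 member values passed, and over all genes and subsets 417 of 45927 tests did (0.908%). Counted over the types and subsets tested, these were 2 of 228 pairs of a member and a type. Those 228 pairs cover more types than the 12 subsets, so their share is not set against the 0.908%. The member tests within the 12 subsets alone were not counted. In the subset led by Ccl8 and Ptx3 Sfrp1 was at 27.6, 36.6 and 17.4 CPM in EC-SAL and at 77.6, 84.4 and 102 CPM in EC-OVA. It was the 1 member of 8 that passed, with a log2 fold change of 1.68 ± 0.25 (SE, adjusted p = 0.000683, edgeR), where 218 of 5627 genes passed (3.87%). The call held with any library left out. The subset itself moved with the clustering: it had 617 cells here and 330 at higher resolution, where the call also held. With the members among the clustering genes 0 cells took its name, so that setting could not be run. Single cells gave part of the level: 37 of the 103 Sfrp1 UMIs of EC-OVA 3 and 18 of the 102 of EC-OVA 2 lay in 1 cell each. Without the highest cell of each library the levels were 12.6 to 29.2 CPM in EC-SAL and 66.3 to 72.1 CPM in EC-OVA, which still did not overlap. Cells with a Sfrp1 UMI were 10.2 to 14.1% in EC-SAL and 23.2 to 30.2% in EC-OVA. EC-OVA cells were deeper, and with cells thinned to 1000 UMIs 0, 3 and 0 cells in EC-SAL (0 to 4.69%) and 14, 11 and 15 cells in EC-OVA (7.43 to 10.8%) had one. The papilla marker list was higher there too, at 24.8 to 89.5 CPM against 187 to 257 CPM with 9 of 12 genes higher and 2 at 0, and the outer root sheath list at 5069 to 5397 against 6529 to 7173 CPM with 5 of 8 higher. The keratinocyte list was lower, at 734 to 962 against 365 to 394 CPM with 0 of 10 higher. Their part in the Sfrp1 difference was not tested. Sfrp4 was at 5.51, 10.5 and 0 CPM in EC-SAL and 41.9, 19.9 and 14.9 CPM in EC-OVA in this subset, with no overlap, and did not pass (2.21 ± 0.66, adjusted p = 0.0796, edgeR).

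In the subset led by F13a1 and Stc1 Wif1 was at 658, 348 and 402 CPM in EC-SAL and at 1447, 831 and 1145 CPM in EC-OVA. The groups did not overlap, and the log2 fold change was 1.30 ± 0.21 (SE, adjusted p = 0.00526, edgeR), 1 of 13 members, against 13 of 4232 genes (0.307%). Without EC-SAL 3 the adjusted p was 0.0693, without EC-OVA 2 the value was 1.47 (adjusted p = 0.00129), and the fold change without each library in turn was 1.11 to 1.62. Cells with a Wif1 UMI were 27.6 to 40% in EC-SAL and 47.8 to 61.0% in EC-OVA, where cells were deeper (median 5528 to 6703 UMIs against 4573 to 5293). With cells thinned to 1000 UMIs the shares were 17.1 to 20% and 28.3 to 34.5%. The level did not rest on a single cell: 8, 5 and 5 cells in EC-SAL and 13, 7 and 10 in EC-OVA had 10 or more Wif1 UMIs. Markers of the types richest in Wif1 overlapped between the groups, the papilla list at 162 to 275 against 195 to 267 CPM (2 of 12 higher, 5 at 0) and the chondrocyte list at 4.41 to 35.1 against 3.56 to 22.6 CPM (4 of 14 higher, 6 at 0). Other lists moved: the keratinocyte list was at 834 to 973 against 335 to 392 CPM (0 of 10 higher), the suprabasal list at 428 to 502 against 189 to 234 CPM (1 of 8 higher), the outer root sheath list at 2646 to 3399 against 3475 to 3918 CPM (3 of 8 higher) and the lymphatic endothelial list at 89.1 to 105 against 128 to 183 CPM (2 of 7 higher). Their part in the Wif1 difference was not tested. Rspo1 in this subset was at 438 ± 25.7 and 379 ± 36.0 CPM (SD, n = 3) and did not pass (-0.18 ± 0.14, adjusted p = 0.813, edgeR). In the subset led by Wfdc12 and Cpz Wif1 was at 303 to 564 CPM in EC-SAL and 415 to 971 CPM in EC-OVA, 0.86 on the log2 scale (adjusted p = 0.168, edgeR). Without EC-OVA 2 it was 1.13 and passed (adjusted p = 0.00161). With the members among the clustering genes the direction turned (-0.81, adjusted p = 0.186).

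**Figure D4:**
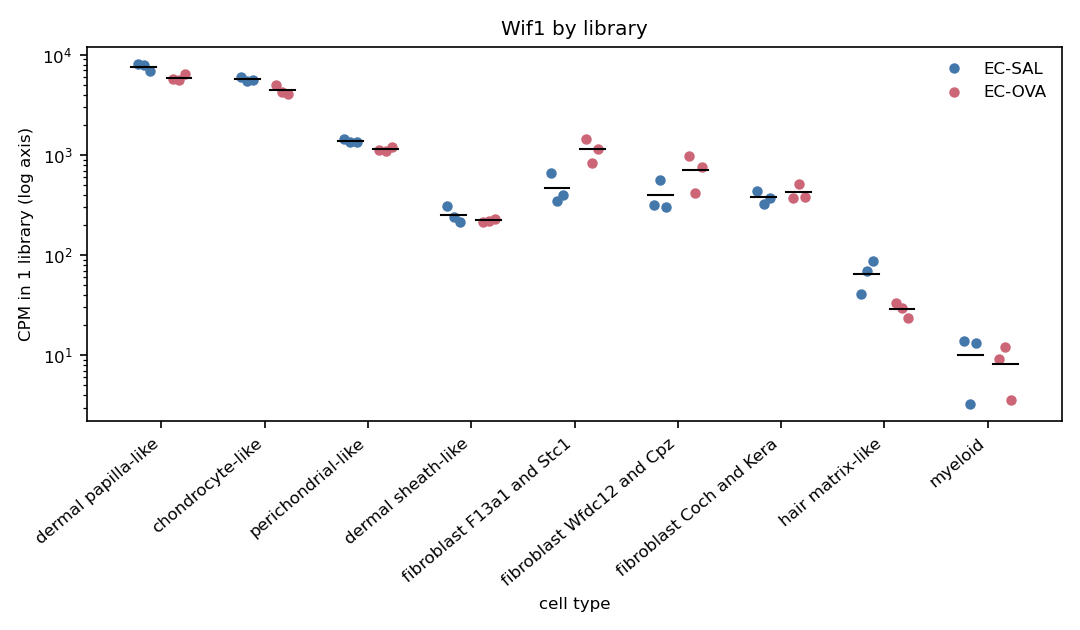
Wif1 CPM by library (points) with the group mean (lines), on a log axis, in 9 cell types and subsets, with EC-SAL and EC-OVA side by side. EC-OVA lies below EC-SAL in papilla-like and chondrocyte-like cells and above it in fibroblasts led by F13a1 and Stc1 (831 to 1447 against 348 to 658 CPM).

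In papilla-like cells 0 of 11 members passed, where 6 of 3731 genes did (0.161%), and DESeq2 also gave 0 members. An unadjusted p under 0.05 was reached by 2 members, but the share of all genes under that cut was not counted. Wif1 averaged 7644 ± 662 CPM (SD, n = 3) in EC-SAL and 5936 ± 443 CPM in EC-OVA, without overlap, a log2 fold change of -0.36 ± 0.12 (SE, adjusted p = 0.652, edgeR). Lgr4 was at 22.5, 15.3 and 40.1 CPM in EC-SAL and 68.1, 88.5 and 49.9 CPM in EC-OVA, also without overlap (1.36 ± 0.40, adjusted p = 0.499, edgeR). Papilla sums held 196712 to 278877 UMIs per library, which limits what can be seen there. Fold changes of the other members tested, among them Rspo1 (-0.23 ± 0.16), Rspo3 (0.21 ± 0.18), Notum (-0.23 ± 0.22), Sfrp2 (-0.29 ± 0.16) and Wnt5a (0.41 ± 0.25), were less than 2 standard errors from 0. The papilla markers overlapped between the groups, at 2821 to 3269 CPM in EC-SAL and 2843 to 3320 CPM in EC-OVA (8 of 12 higher). Lists of other types moved. The keratinocyte list was at 981 to 1561 and 341 to 415 CPM (1 of 10 higher). The suprabasal list was at 477 to 503 and 133 to 247 CPM (0 of 8 higher, 2 at 0). Their part in the members' values was not tested.

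In hair matrix-like cells 0 of 16 members passed, against 4 of 7170 genes (0.0558%), and DESeq2 gave 0 members as well. An unadjusted p under 0.05 was reached by 3 members, all lower in EC-OVA. The share of all genes under that cut was not counted. Wnt10b was at 30.6, 36.9 and 53.3 CPM in EC-SAL and at 16, 18 and 16 CPM in EC-OVA (-1.23 ± 0.30, adjusted p = 0.622, edgeR). Wnt10a was at 35.3 to 43.2 CPM and 18.7 to 29.6 CPM (-0.67 ± 0.23, adjusted p = 0.755). Wif1 was at 40.6 to 86.5 CPM and 23.3 to 33.3 CPM (-1.15 ± 0.30, adjusted p = 0.700). For all 3 the groups did not overlap. Lef1 (-0.03 ± 0.22) and Wnt4 (0.14 ± 0.14) lay near 0. Lists of other types moved too. The suprabasal list was at 571 to 721 CPM in EC-SAL and 313 to 381 CPM in EC-OVA (1 of 8 higher). The upper hair follicle list was at 1836 to 2345 and 2845 to 3379 CPM (3 of 8 higher). The fibroblast list was at 1241 to 1702 and 777 to 1109 CPM (6 of 10 higher). The papilla list was at 86.6 to 116 and 71.4 to 77.3 CPM (3 of 12 higher, 6 at 0). Their part in the members' values was not tested.

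In chondrocyte-like cells 0 of 14 members passed, against 115 of 8285 genes (1.39%), and 0 members passed with DESeq2. An unadjusted p under 0.05 was reached by 2 members, but the share of all genes under that cut was not counted. Wif1 averaged 5723 ± 241 CPM (SD, n = 3) in EC-SAL and 4462 ± 452 CPM in EC-OVA, a log2 fold change of -0.34 ± 0.08 (SE, adjusted p = 0.0526, edgeR), just outside the threshold. It passed without EC-OVA 2 (adjusted p = 0.0453), with no filter on low counts (0.0146), with doublets kept (0.0498) and with the members among the clustering genes. The 14 chondrocyte markers summed to 13322 to 13972 CPM in EC-SAL and 15367 to 16314 CPM in EC-OVA (11 of 14 higher), the fibroblast markers to 14461 to 15301 and 10860 to 12469 CPM (4 of 10 higher), the keratinocyte markers to 1287 to 1386 and 606 to 913 CPM (0 of 10 higher) and the dermal sheath markers to 391 to 443 and 557 to 637 CPM (4 of 8 higher). Their part in the Wif1 difference was not tested. Notum, at 115 to 157 CPM and 84.7 to 118 CPM, overlapped between the groups (-0.36 ± 0.14, adjusted p = 0.297, edgeR). In perichondrial-like cells Wif1 was at 1337 to 1453 CPM in EC-SAL and 1094 to 1208 CPM in EC-OVA, again lower in every library (-0.25 ± 0.08, adjusted p = 0.269, edgeR).

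In keratinocyte-like cells Lgr5, Fzd1 and Lgr4 rose, 3 of the 27 members tested, against 375 of 11754 genes (3.19%), 2.21% higher and 0.978% lower. Lgr5 was at 7.72, 9.03 and 9.36 CPM in EC-SAL and at 13.6, 14.2 and 11.7 CPM in EC-OVA (0.60 ± 0.13, adjusted p = 0.0377, edgeR). Fzd1 was at 18.2 to 19.1 CPM and 21.6 to 26.1 CPM (0.36 ± 0.08, adjusted p = 0.0446, edgeR). Lgr4 averaged 19.8 ± 0.197 CPM (SD, n = 3) in EC-SAL and was at 23.3 to 25.9 CPM in EC-OVA (0.32 ± 0.07, adjusted p = 0.0486, edgeR). In none of the 3 did the groups overlap, but the calls were close to the threshold: those of Lgr5 and Fzd1 were lost when any library but EC-OVA 3 was left out, that of Lgr4 when any of the 6 was, and all 3 with DESeq2. Outer root sheath-like cells, highest for Lgr4 and Lgr5, gave 8.62 to 8.91% of keratinocyte-like UMIs in EC-SAL and 11.5 to 15.3% in EC-OVA, and basal-like cells 32.8 to 34% and 21.02 to 22.6%. With the same mix of subsets in every library, 26 of 11754 genes passed (0.221%) and 0 members. Markers of other types also moved in keratinocyte-like cells: the sebocyte list was at 1054 to 1148 CPM in EC-SAL and 1319 to 1505 CPM in EC-OVA (10 of 10 higher), the dermal sheath list at 141 to 177 and 205 to 278 CPM (7 of 8 higher) and the fibroblast list at 143 to 161 and 166 to 250 CPM (9 of 10 higher), and their part was not tested. At equal mix Lgr5 was at -0.00 (adjusted p = 0.993, limma), Fzd1 at -0.08 (0.814) and Lgr4 at 0.08 (0.793). In outer root sheath-like cells themselves Lgr5 averaged 92.7 ± 10.7 CPM (SD, n = 3) in EC-SAL and 95.3 ± 4.63 CPM in EC-OVA, and 0 members passed in the 4 keratinocyte-like subsets, where 103 of 35873 tests over all genes did (0.287%, edgeR). With an unadjusted p under 0.05 there were 2 members in basal-like, 1 in suprabasal-like, 3 in upper hair follicle-like and 0 in outer root sheath-like cells. The shares of all genes under that cut were not counted.

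The ligand Wnt4 was at 136, 130.4 and 128 CPM in EC-SAL keratinocyte-like cells and at 107, 114 and 95 CPM in EC-OVA, with no overlap (-0.32 ± 0.08, adjusted p = 0.0536, edgeR). Without EC-OVA 2, the highest of the EC-OVA libraries, the fall passed (-0.41, adjusted p = 0.00934), as it did with DESeq2 and with no filter on low counts. At equal subset mix the value was -0.13 (adjusted p = 0.617, limma). Over all kept cells its fall was larger, from 85.9 ± 3.35 to 47.2 ± 4.49 CPM (SD, n = 3), or -0.92 ± 0.07 on the log2 scale (adjusted p = 5.5e-05, edgeR). In sums over all kept cells 11 members rose and 9 fell of 40, against 6689 of 14924 genes (44.8%, 22.5% higher and 22.3% lower), a share near that of the members. Keratinocyte-like cells numbered 1600 to 1954 per EC-SAL library and 730 to 855 per EC-OVA library, and changes within cells and in the mix of cells cannot be told apart in these sums.

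**Figure D5:**
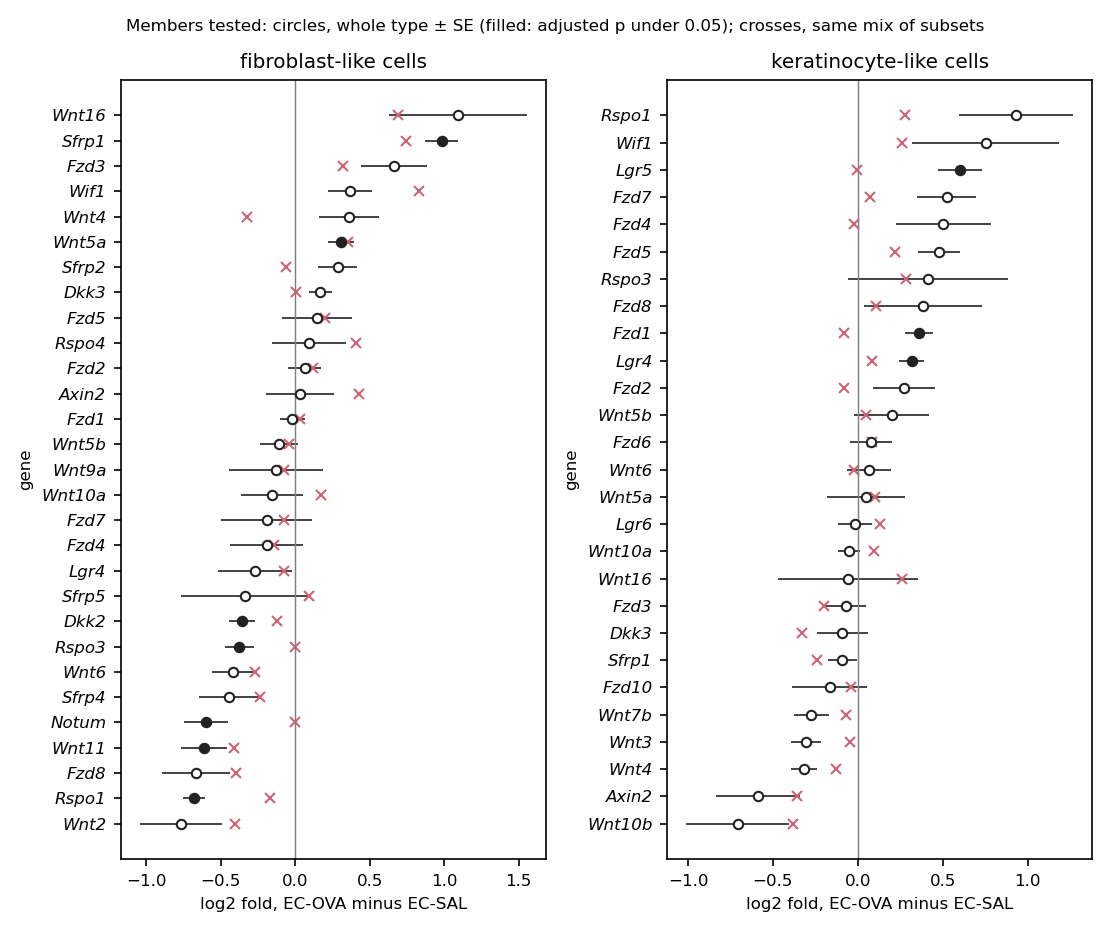
Log2 fold change, EC-OVA against EC-SAL (circles, with SE), for the 29 members tested in fibroblast-like and the 27 tested in keratinocyte-like cells, with the values at equal subset mix (crosses). Filled circles passed an adjusted p of 0.05, 7 in fibroblast-like and 3 in keratinocyte-like cells, and the crosses of Lgr5, Fzd1, Rspo3 and Notum lie close to 0.

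The difference of the EC-OVA effect between fibroblast-like and keratinocyte-like cells was tested with edgeR with the library as a block. It passed for 1153 of 12722 genes (9.06%) and for 4 of the 36 members tested, a share near that over all genes. The effect on Sfrp1 was higher in fibroblast-like cells by 1.07 ± 0.13 on the log2 scale (SE, adjusted p = 4.5e-08, edgeR). In keratinocyte-like cells Sfrp1 was at 45.3 ± 4.24 and 42.4 ± 4.64 CPM (SD, n = 3). The effect on Rspo1 was lower in fibroblast-like cells by -1.61 ± 0.35 (adjusted p = 0.00126, edgeR), but its level in keratinocyte-like cells was only 0.771 and 1.47 CPM. Fzd1 differed by -0.39 ± 0.12 (adjusted p = 0.0314) and Wnt4 by 0.66 ± 0.22 (adjusted p = 0.0460), the latter from 5.87 and 7.50 CPM in fibroblast-like cells. With limma on the per-library difference none of the 4 passed, and their adjusted p-values were 0.0756 to 0.234. Those of Sfrp1 and Rspo1 passed under the other 12 settings of 13. The Fzd1 difference was lost in 10 of 13, with an adjusted p of 0.0491 to 0.158 when each library was left out, and that of Wnt4 in 7 of 13, with 0.0188 to 0.253. A comparison added after the values were seen set fibroblasts led by F13a1 and Stc1 against chondrocyte-like cells. There the Wif1 effect differed by 1.67 ± 0.15 (adjusted p = 5.07e-10, edgeR), where 27 of 7768 genes passed (0.348%). Against all fibroblast-like cells, where 254 of 10758 genes passed (2.36%), the effects on Wif1 and Sfrp1 also differed from those in chondrocyte-like cells (0.69 ± 0.11, adjusted p = 8e-05, and 1.23 ± 0.18, adjusted p = 3.5e-05, edgeR). Limma on the per-library difference, with which none of the 4 members above passed, was not run for the comparisons with chondrocyte-like cells.

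Beyond the 48 genes, a list of 57 other genes of the pathway was followed, among them co-receptors, cytoplasmic components, secretion factors and targets. In fibroblast-like cells 2 of 52 tested rose and 5 fell. Wls, which carries Wnt proteins to the cell surface, was at 129, 115 and 112 CPM in EC-SAL and at 167, 150.1 and 166 CPM in EC-OVA (0.44 ± 0.07, adjusted p = 0.00141, edgeR). The groups did not overlap, and the value at equal subset mix was 0.35 (adjusted p = 0.0193, limma). The co-receptor Ptk7 rose by 0.42 (adjusted p = 0.0145). Those that fell were Bambi, a pathway target that acts as a decoy receptor for another family of signals (-0.52, adjusted p = 0.0204), Nkd1, an inhibitor induced by the pathway (-0.36, adjusted p = 0.0464), the glypican Gpc3 (-0.33, adjusted p = 0.0155), the transcription factor Twist1 (-0.26, adjusted p = 0.0321) and Myc. At equal subset mix these 6 did not pass with limma: Ptk7 was at 0.19 (adjusted p = 0.488), Bambi at -0.32 (0.352), Nkd1 at -0.14 (0.674), Gpc3 at -0.32 (0.0527), Twist1 at -0.09 (0.695) and Myc at -0.08 (0.735). Ctnnb1, which encodes beta-catenin, was at 0.10 (adjusted p = 0.460, edgeR). In keratinocyte-like cells Gpc4 rose by 0.49 (adjusted p = 0.00731), Ccnd1 fell by 0.49 (0.0427) and Tnfrsf19 fell by 0.39 (0.00777), 3 of 49. At equal mix Gpc4 was at 0.11 (adjusted p = 0.770, limma), Ccnd1 at -0.48 (0.0507) and Tnfrsf19 at -0.09 (0.757), and Ccnd1 lost its call when any library but EC-OVA 2 was left out (adjusted p up to 0.138, edgeR). None of 20 passed in papilla-like, of 35 in matrix-like or of 36 in chondrocyte-like cells, where the shares over all genes were those given above. In myeloid cells, which held no member at 20 CPM, Bambi rose by 1.35 (adjusted p = 0.0326), where 720 of 6573 genes passed (11%).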

How the data were processed

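For each of the 6 libraries the authors deposited UMI counts per gene and barcode, whole numbers that per the file headers came from Cell Ranger 3.1.0. The submitters' processing notes name STAR and mm10, and no source used here gives the annotation release. Of 38206 barcodes, 24432 cells (60.6 to 66.9% per library) were kept, with at least 300 genes, at most 15% mitochondrial UMIs and without the doublet candidates, taken as the top Scrublet scores at 0.8% for every 1000 barcodes. Scrublet's own threshold marked only 0.026 to 0.304% and had not worked. Pairs of libraries shared at most 0.873% of barcodes.

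Cells were clustered with scanpy 1.11.5 (2000 variable genes without the members, 40 principal components, 20 neighbours, Leiden resolution 1) and named from markers: at least 3 raised 2-fold in 25% of cells, and no other list with more of the cluster's top 10 genes. Several fibroblast-like subsets did not meet this rule against the clusters split with them, as given above. UMIs were summed per type and library where each library had at least 10 cells, filtered with filterByExpr and tested with the quasi-likelihood test of edgeR 4.0.16 (R 4.3.3) after TMM scaling, with Benjamini-Hochberg adjustment over all genes of a type and a threshold of 0.05. Standard errors were derived from the edgeR fit. limma 3.58.1 was used at equal subset mix and DESeq2 1.42.0 as an alternative. The tests were checked on simulated counts. Groups are the treatment labels, and the totals per library differed little, so depth limits mainly the small types. With 3 against 3 libraries an exact permutation test cannot go below 0.1.

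Members with values are those at 20 CPM or above in a group of a named type, past the threshold in any type, or highest of their family in a main type. Pathway genes named are at most 4 per type and direction by size of change, with Wls and Ctnnb1. Myc, the other of 5 that fell in fibroblast-like cells, was named after its value was seen. The members, marker lists and pathway list were chosen with earlier results of these data known. Intervals and shares of cells cover counting error only.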

Additional observations from a re-analysis of the deposited data

Results flagged for a closer look

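These values differed between cell types by a test of the difference of the EC-OVA effect (edgeR's quasi-likelihood test with the library as a block, 3 libraries per group, Benjamini-Hochberg), and no explanation was tested. Between fibroblast-like and keratinocyte-like cells the log2 effect differed by 1.07 ± 0.13 for Sfrp1, -1.61 ± 0.35 for Rspo1, 0.66 ± 0.22 for Wnt4 and -0.39 ± 0.12 for Fzd1. These were 4 of the 36 members tested, a share near the 9.06% of all genes (1153 of 12722). With limma on the per-library difference none of the 4 passed (adjusted p = 0.0756 to 0.234). The Fzd1 difference was also lost without 5 of the 6 libraries taken one at a time (adjusted p = 0.0491 to 0.158, edgeR) and that of Wnt4 without 4 of them (0.0188 to 0.253), while Rspo1 rests on 0.771 and 1.47 CPM in keratinocyte-like cells. Sfrp1 was higher in all 3 EC-OVA libraries of fibroblast-like cells, while its groups overlapped in keratinocyte-like cells (40.5 to 48.8 and 37.7 to 47.0 CPM). Wif1, the ligand-binding inhibitor, had an effect higher by 1.67 ± 0.15 in fibroblasts led by F13a1 and Stc1 than in chondrocyte-like cells (adjusted p = 5.07e-10), and by 1.52 to 1.93 with each library left out. In all fibroblast-like cells it was higher by 0.69 ± 0.11 than in chondrocyte-like cells (adjusted p = 8e-05), where 254 of 10758 genes passed (2.36%). Sfrp1 differed there by 1.23 ± 0.18 (adjusted p = 3.5e-05). The comparisons with chondrocyte-like cells were added after the values were seen and were not run with limma on the per-library difference.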

How the results depend on the processing

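Counts of genes passing, and of members among them, moved with several settings. A member count given without the gene count of its setting is not a result about the members. In fibroblast-like cells (7 members, 1112 genes) DESeq2 gave 2 and 535, no filter on low counts 12 members, the 12 tested subsets pooled 2 and 610, and the same mix of subsets 2 and 268. In keratinocyte-like cells (3 and 375) DESeq2 gave 1 member, no filter 6 and 734, members among the clustering genes 1 member, a replicate block 584 genes and the same mix 0 and 26. In matrix-like cells (0 and 4) no filter gave 2 and 118, the replicate block 7 genes, stricter cells 1 and higher resolution 2. In papilla-like cells (6 genes) the replicate block gave 10, DESeq2 3, no filter 28 and doublets kept 10. In chondrocyte-like cells (0 and 115) 1 member, Wif1, passed with the replicate block, no filter, doublets kept or members among the clustering genes, and DESeq2 gave 66 genes and no filter 196. In the subsets and further types (2 members) the replicate block gave 5, no filter 14 and doublets kept 5. For the difference between fibroblast-like and keratinocyte-like cells (4 and 1153) higher resolution gave 2 members, and limma 0 and 51 genes. With each library left out in turn, the ranges of genes and members were 676 to 887 and 2 to 7 in fibroblast-like, 98 to 326 and 0 to 2 in keratinocyte-like, 1 to 10 and 0 to 0 in matrix-like, 3 to 6 and 0 to 0 in papilla-like, 36 to 121 and 0 to 1 in chondrocyte-like and 5149 to 5993 and 17 to 21 in all kept cells, 846 to 1093 and 2 to 5 for the difference, and 1 to 5 members in the further types. Values that turned sign were Fzd1 (-0.0812) and Lgr5 (-0.00462) in keratinocyte-like cells at equal subset mix, and Wif1 in fibroblasts led by Wfdc12 and Cpz (-0.81) with members among the clustering genes. The cause was not tested. RLE scaling left all 85 results it was run on on their side of the threshold.

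Whether the replicate numbers pair the libraries was not settled. Deviations of same-numbered libraries correlated at 0.0566, 0.0460 and -0.0549 in all kept cells and at 0.0567, 0.0814 and -0.0368 in fibroblast-like cells. Different-numbered libraries correlated there at -0.100 to 0.0671 and -0.113 to 0.0609. In keratinocyte-like cells the same-numbered values were 0.149, 0.118 and 0.0205, against -0.167 to 0.0536 for different numbers. There 0.149 and 0.118 lay above every different-numbered pair. With the number as a block, Wif1 in chondrocyte-like cells passed (adjusted p = 0.0363, edgeR, 3 libraries per group), as did Wnt4 in keratinocyte-like cells, and Lgr4 in keratinocyte-like cells did not. Without EC-OVA 2, 5 members passed in fibroblast-like, 1 in keratinocyte-like and 1 in chondrocyte-like cells, and 5 in the subsets and further types. The share of all genes passing in that setting is not given, so these counts are not results about the members. Members not called with all libraries were Sfrp2 and Wif1 in fibroblast-like, Wnt4 in keratinocyte-like and Wif1 in chondrocyte-like cells, in the Wfdc12 and Cpz subset and in lymphoid cells, and Notum in the unnamed cluster. Of papilla-like, matrix-like, chondrocyte-like, fibroblast-like and keratinocyte-like cells, depth limits the papilla-like cells most. There 3731 genes were tested, against 11754 in keratinocyte-like cells. Some subsets were shallower still, such as the one led by Hapln1 and Chrm2 at 32542 to 66531 UMIs per library.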

Other observations

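A few single cells set the Wif1 level of types that otherwise had little of it. In lymphoid cells EC-OVA 1 held 79 Wif1 UMIs in 2 cells, 46 of them in the highest, and EC-OVA 3 held 44 UMIs in 4 cells, 41 of them in 1 cell, while the other libraries held 0 to 3. In outer root sheath-like cells EC-OVA 1 held 78 Wif1 UMIs in 7 cells, 53 of them in 1 cell, while the other libraries held 2 to 5. These cells passed the doublet filter.

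In fibroblasts led by Ccl8 and Ptx3, where Sfrp1 rose, the Wnt carrier Wls was at 91.0, 109.8 and 57.2 CPM in EC-SAL and 152, 122 and 153 CPM in EC-OVA, without overlap (0.71, adjusted p = 0.0460, edgeR's quasi-likelihood test with Benjamini-Hochberg adjustment, 3 libraries per group), and its adjusted p ranged from 0.0119 to 0.270 with each library left out. Axin2, the target gene, was at 24.3 to 44.1 CPM and 46.2 to 64.9 CPM in fibroblasts led by F13a1 and Stc1, where Wif1 rose, without overlap, and did not pass (0.75 ± 0.31, adjusted p = 0.541, edgeR).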
